A study of Bos taurus with 14 samples.

Results

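The genes described here are the bovine cell surface antigens named by a CD number (cluster of differentiation), such as CD3E or CD86. They were found by symbol: every non-control probe whose gene symbol in the array files was CD, a number and at most 1 further letter was taken, except CD14, CD36 and CD68, and of several probes for a symbol the one with the highest mean log2 signal over the 14 arrays stood for it. The array held 22 such genes among the 6327 distinct symbols read in the same way from its 15208 non-control probes. Symbols came from the gene name field for 16 of the genes and from the description field for the other 6. Of the 22, 21 matched a symbol in RefSeq (bovine assembly ARS-UCD2.0), where CD97 is listed as ADGRE5. CD23, which the file describes as the low-affinity IgE receptor, had no match.

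Bovine granulocytes and endometrial stromal cells of cattle (BES) were each incubated in vitro for 2 h. They received either interferon tau (IFNT), labelled as 1 mg/mL, or phosphate-buffered saline (PBS) as the control. IFNT is a type I interferon by which the ruminant embryo signals its presence to the mother before implantation. In BES, 3 samples had PBS and 3 had IFNT, and in granulocytes, 4 had PBS and 4 had IFNT. Each sample was hybridised alone to a one-colour Agilent array. The labels give no genotype, breed, age or sex, describe RNA extraction for granulocytes alone, and do not say whether the numbered samples came from separate animals or cultures, so errors and p-values measure the spread between these samples, which may be technical. The stated dose is high for an interferon and its unit was not checked here. Each cell type had a slide of its own, so the effect of the slide and that of the cell type cannot be told apart. For granulocytes, row 1 of the slide held every PBS array and row 2 every IFNT array, so row and treatment cannot be told apart there.

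CD numbers were assigned to leukocyte surface molecules as antibodies against them were grouped, so the genes share a naming history and not a pathway. They include the signalling and co-receptor chains of T cells, B cell receptors, the costimulatory ligands with which antigen-presenting cells engage T cells, the tetraspanins, which organise other proteins in the membrane, and adhesion molecules. Granulocytes carry many tetraspanins and adhesion molecules and few of the lymphocyte chains, and type I interferon is known to raise several activation antigens on leukocytes.

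Levels below are log2 signals relative to the 75th percentile of the array's own probes, so a value of 0 is a probe at that percentile, and a level of 1 gene is compared only with the same gene on other arrays. A probe was called well above background by the scanner software. Of the 22 genes, 11 were well above background on every array of both cell types: CD2, CD9, CD23, CD37, CD53, CD63, CD81, CD83, CD97, CD164 and CD276. Another 9 were above background on granulocyte arrays only, namely CD3E, CD6, CD8A, CD28, CD38, CD48, CD69, CD86 and CD180. CD34 was above background on BES arrays only, and CD1B, a lipid-presenting molecule, on no array. CD6 was above background on 7 of the 8 granulocyte arrays, and the other 8 of its set on every one.

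**Figure D1:**
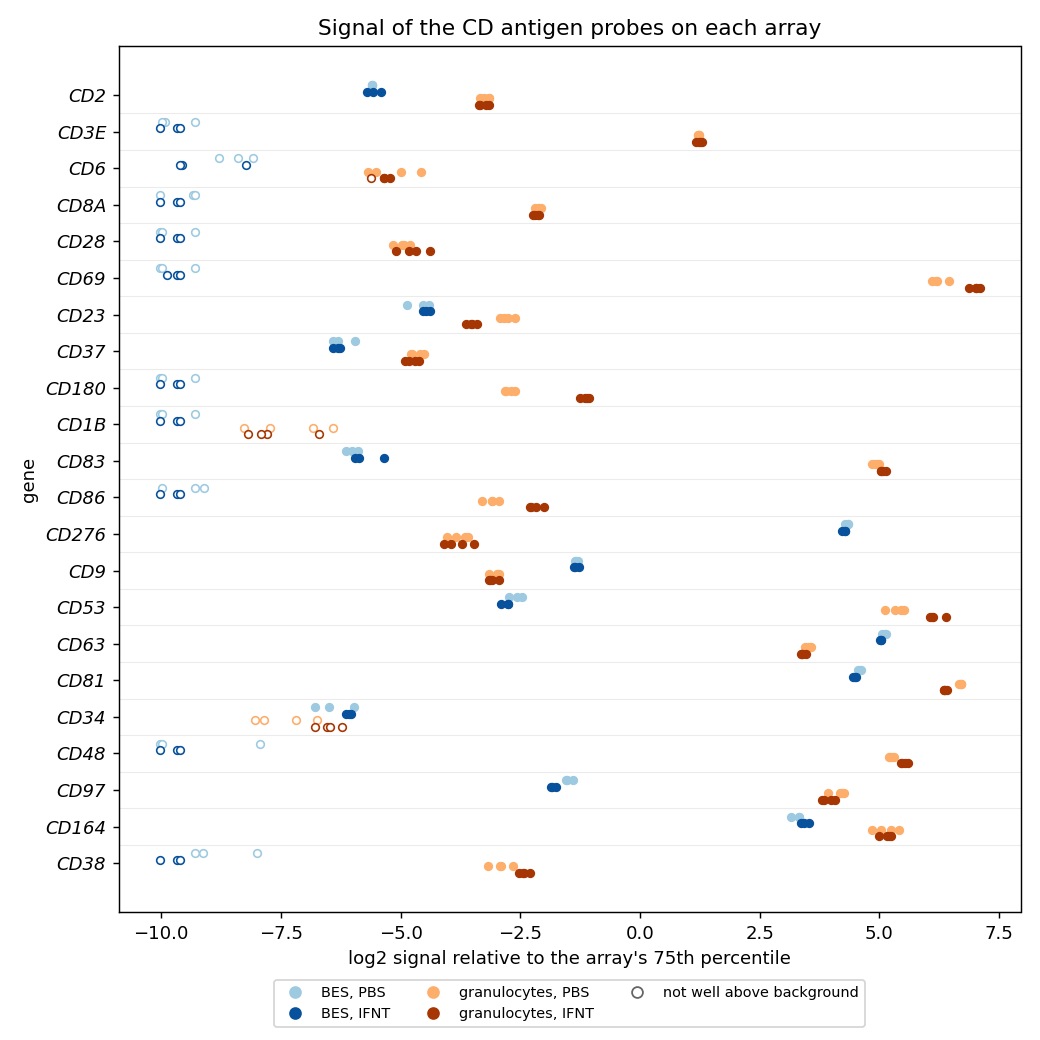
Each point is 1 array, and the horizontal axis is the log2 signal relative to that array's 75th percentile for the 22 CD genes; colours mark the 4 groups and open points were not well above background. CD276, CD9 and CD63 lie further right in BES than in granulocytes, and 9 genes have filled points in granulocytes only.

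The labelled cell types were checked against marker genes. All 9 granulocyte markers with a probe were above background on every granulocyte array, with a summed linear signal of 730 to 930 times the 75th percentile with PBS, against 0.885 to 0.986 in BES with PBS. All 10 stromal markers with a probe were above background on every BES array, with sums of 181 to 184 with PBS. On granulocyte arrays with PBS, 5 of the 10 were above background on every array, with sums of 25.3 to 27.0, and COL1A2, COL3A1, LUM and PDGFRA were on none. Among those present, COL1A1 rose by 1.42 on the log2 scale with IFNT in granulocytes. THY1, also on the stromal list, was higher in granulocytes than in BES, with PBS means of -1.88 and -4.39. Of 6 epithelial markers with a probe, 5 were above background on every BES array, and EPCAM was on none. With PBS the summed signal of this list was 207 to 235 in BES and 4.39 to 5.93 in granulocytes. Whether BES held epithelial cells was not tested. Between 71.6% and 76.1% of the probes on a BES array were well above background, and between 66.4% and 70.9% on a granulocyte array. With 3 or 4 arrays in a group, their number sets the precision.

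The array measured each gene through a probe of 60 bases. The probes of CD53 and CD23 are shown because the IFNT responses of these genes differed between the cell types, and both CD38 probes because they gave different calls. They are written 5′ to 3′ as the array files give them:
CD53: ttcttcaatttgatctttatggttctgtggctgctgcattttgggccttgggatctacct
CD23: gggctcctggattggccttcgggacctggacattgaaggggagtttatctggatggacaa
CD38, first probe: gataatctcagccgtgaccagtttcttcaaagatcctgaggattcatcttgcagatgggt
CD38, second probe: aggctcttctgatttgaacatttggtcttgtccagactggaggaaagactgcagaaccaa
None of these probes shared a run of 16 bases with another probe on the array. Among all CD probes, that of CD34 alone did, with a run of 16 bases in common with a KDELR2 probe.

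In granulocytes, the comparison of IFNT with PBS asked which CD genes changed in RNA level within 2 h of IFNT in vitro. Protein at the cell surface was not measured. IFNT raised 7 of the 20 CD genes tested: CD180, CD86, CD53, CD69, CD38, CD48 and CD83. It lowered CD23 and CD81. The 9 genes make up 45.0% of those tested, and 44.6% of all 10379 probes tested passed the same threshold, a Benjamini-Hochberg adjusted p under 0.05 with limma, so the share of CD genes called was near that of the array. By direction, 35.0% of the CD genes (7 of 20) were higher, beside 17.2% of all probes, and 2 of 20 were lower, beside 27.4%. The median log2 change was -0.0048 over the 20 genes and -0.0537 over all probes tested. The PBS and IFNT arrays did not overlap for 9 of the 20 genes, beside 43.6% of all probes, and 1 of the 9 called genes changed at least 2-fold.

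Among the B cell antigens, CD180 had the largest change. CD180 is a toll-like receptor homologue of B cells and myeloid cells that restrains or assists lipopolysaccharide responses. Its level was -2.70, -2.79, -2.61 and -2.82 in the 4 PBS samples and -1.14, -1.25, -1.10 and -1.06 in the 4 IFNT samples. Every IFNT sample lay more than a whole log2 unit above every PBS sample. The rise was 3.02-fold, or 1.60 ± 0.06 on the log2 scale (SE, n = 4 against 4, limma adjusted p = 2.06e-07).

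CD23, the low-affinity receptor for IgE, went the other way. Its level was -2.76, -2.92, -2.61 and -2.84 with PBS and -3.51, -3.64, -3.41 and -3.54 with IFNT. All 4 IFNT samples lay below all 4 PBS samples, and the fall was 1.67-fold (log2 -0.74 ± 0.08, limma adjusted p = 8.67e-05). CD37, a tetraspanin of B cells, had a log2 change of -0.10 (95% interval -0.29 to 0.10) and did not pass.

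Among antigen presentation and costimulation genes, CD86, a ligand through which antigen-presenting cells costimulate T cells, rose 1.90-fold. Its level was -2.94, -3.10, -3.31 and -3.09 with PBS and -2.27, -2.01, -2.29 and -2.16 with IFNT. The groups did not overlap, and the log2 change was 0.92 ± 0.09 (limma adjusted p = 6.32e-05). CD83, a marker of maturing dendritic cells that neutrophils can also carry, was at 4.99, 4.91, 4.96 and 4.84 with PBS and at 5.03, 5.04, 5.07 and 5.14 with IFNT. The groups stood close but apart, with a log2 change of 0.15 ± 0.05 (limma adjusted p = 0.0408). This call ended with the array median subtracted (adjusted p = 0.0799), with no filter on dim probes (0.0835), with the sample number as a block (0.087), with all 4 groups in 1 fit (0.301), and on leaving out PBS sample 2 or 4 or any of the IFNT samples (0.0584 to 0.110). CD276, an immune checkpoint ligand, had a log2 change of -0.02 (95% interval -0.36 to 0.31).

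Of the 4 tetraspanins CD9, CD53, CD63 and CD81, 1 rose, 1 fell and 2 did not pass. The tetraspanin CD37, described above with the B cell antigens, did not pass either. CD53, the tetraspanin of leukocytes, was at 5.34, 5.52, 5.13 and 5.45 with PBS and at 6.10, 6.40, 6.06 and 6.13 with IFNT. Each IFNT sample was above each PBS sample, a rise of 1.76-fold (log2 0.81 ± 0.10, limma adjusted p = 2.82e-04). CD81, a widely expressed tetraspanin that forms part of the B cell co-receptor, was at 6.71, 6.70, 6.66 and 6.70 with PBS and at 6.36, 6.34, 6.37 and 6.41 with IFNT.

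CD81 samples within a group lay within 0.1 of each other, and the groups were clearly apart. The fall was 1.25-fold (log2 -0.32 ± 0.04, limma adjusted p = 2.31e-04). CD63, a marker of granule and lysosome membranes, had a log2 change of -0.12 (adjusted p = 0.0615 with limma), which passed with the array median subtracted (0.0397), with an intensity trend (0.0408), with all 4 groups in 1 fit (0.0196) and without PBS sample 4 (0.0433). CD9 had a log2 change of -0.07 (95% interval -0.22 to 0.08).

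Of the T cell genes, CD69, an early activation antigen that also appears on stimulated granulocytes, was the one that passed. Its level was 6.18, 6.19, 6.45 and 6.09 with PBS and 6.88, 7.02, 7.09 and 7.03 with IFNT. The lowest IFNT sample was above the highest PBS sample, and the rise was 1.71-fold (log2 0.78 ± 0.08, limma adjusted p = 1.05e-04). The other 5 T cell genes did not pass. The log2 change was 0.02 for CD3E, the signalling chain of the T cell receptor complex (95% interval -0.08 to 0.12), and -0.04 for the co-receptor chain CD8A (-0.15 to 0.07). For the adhesion receptor CD2 it was -0.05 (-0.21 to 0.10), for the costimulatory receptor CD28 0.21 (-0.12 to 0.54), and for the scavenger-like receptor CD6 -0.19 (-0.71 to 0.33). The intervals of CD28 and CD6, dim genes on these arrays, were the widest of the 5.

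Markers of lymphocytes, monocytes and eosinophils were measured beside these genes, since a change in bulk RNA cannot tell fewer cells of a type from less RNA per cell. Of 5 T and NK cell markers with a probe, 2 rose with IFNT (NKG7 by 0.93 and PRF1 by 0.27 on the log2 scale) and none fell, and the list's summed signal was 0.40 to 0.42 with PBS and 0.44 to 0.49 with IFNT. Of 6 B cell markers with a probe, 2 rose (BLNK by 0.47 and JCHAIN by 0.35) and none fell, with sums of 10.1 to 10.7 and 11 to 12. Of 9 monocyte and macrophage markers with a probe, 5 rose and 2 fell, with sums of 29.4 to 32.0 and 27.8 to 28.8. Both eosinophil markers with a probe fell, CCR3 by 1.34 and ALOX15 by 0.21, with sums of 13.7 to 14.5 with PBS and 10.6 to 12.1 with IFNT. These counts stand beside 17.2% of all probes higher and 27.4% lower. No marker of these 4 lists was below background on all granulocyte arrays of a group, and their part in the changes of the CD genes was not tested.

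Among adhesion genes and surface enzymes, CD48 and CD38 rose. CD48, a ligand of the SLAM family receptor CD244 on blood cells, was at 5.23, 5.27, 5.31 and 5.20 with PBS and at 5.45, 5.60, 5.54 and 5.47 with IFNT. The difference was small beside that of CD180, and the groups did not overlap (log2 0.26 ± 0.05, 1.20-fold, limma adjusted p = 0.00287). With all 4 groups in 1 fit, where BES arrays with no CD48 signal above background entered the spread, the call ended (adjusted p = 0.58).

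CD38, an enzyme that consumes NAD, was at -2.90, -2.92, -3.16 and -2.66 with PBS and at -2.43, -2.31, -2.52 and -2.44 with IFNT by its first probe. All IFNT samples were above all PBS samples, a rise of 1.40-fold (log2 0.49 ± 0.10, limma adjusted p = 0.00445). The second CD38 probe read -4.04, -3.92, -4.43 and -3.32 with PBS and -3.28, -3.28, -3.71 and -3.53 with IFNT. Its log2 change was of like size, 0.47 ± 0.22, but PBS sample 4 lay among the IFNT samples and the call ended (adjusted p = 0.111); it also ended for the first probe with all 4 groups in 1 fit (0.102). CD97, an adhesion receptor of the G protein-coupled class, had a log2 change of -0.22 (adjusted p = 0.0865) that passed with the array median subtracted (0.0473), with the sample number as a block (0.043), with all 4 groups in 1 fit (0.0415) and without PBS sample 3 (0.0168). The sialomucin CD164 had a log2 change of 0.01 (95% interval -0.26 to 0.29).

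**Figure D2:**
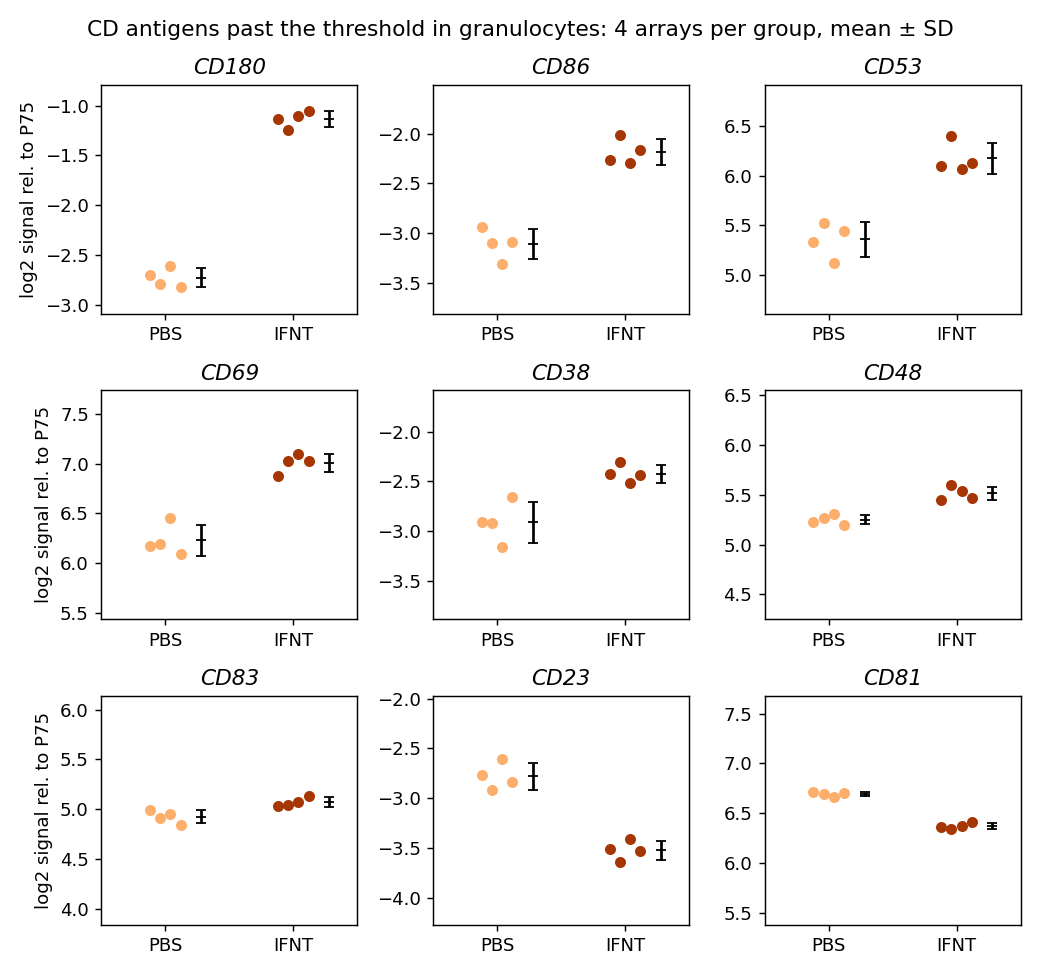
Panels show the 9 CD genes past the threshold in granulocytes, each point 1 of the 4 PBS or 4 IFNT arrays and bars the mean ± SD, on the log2 scale relative to the array's 75th percentile (P75), with the same height of axis in every panel. The groups are apart in every panel, by 1.60 for CD180 and by 0.15 for CD83.

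In BES, the same comparison asked how a resident cell of the uterus responds. IFNT changed 1 of the 12 CD genes tested: CD97 fell, and no CD gene rose by limma. The share called is 8.33%, beside 3.66% of all 11309 probes tested, of which 2.29% rose and 1.37% fell. Of the 12, 4 had an unadjusted p under 0.05. The share of all probes at that cut was not counted, so no result about these genes is read from it. The median log2 change was -0.0319 over the 12 genes and -0.0200 over all probes. The groups did not overlap for 5 of the 12 genes, or 41.7%, beside 33.5% of all probes.

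CD97 was at -1.52, -1.39 and -1.54 in the PBS samples of BES and at -1.75, -1.86 and -1.83 in the IFNT samples. The groups were apart, and the fall was 1.25-fold (log2 -0.33 ± 0.06, SE, n = 3 against 3, limma adjusted p = 0.0408). The call is not stable: it ended on leaving out any of the 6 arrays (adjusted p = 0.0531 to 0.149), with no filter on dim probes (0.121), with the sample number as a block (0.0905), with all 4 groups in 1 fit (0.0785), and with array row as a covariate (0.332). The first row of the BES slide held PBS samples 1 and 2, and the second row the other 4 BES samples, so that last fit rests on PBS sample 3.

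The remaining 11 CD genes measured in BES did not pass. CD53 was at -2.47, -2.56 and -2.74 with PBS and at -2.76, -2.75 and -2.90 with IFNT, a log2 change of -0.21 (adjusted p = 0.179). CD81 was at 4.60, 4.62 and 4.56 with PBS and at 4.46, 4.52 and 4.50 with IFNT, a log2 change of -0.10 (adjusted p = 0.196). Both pairs of groups were just apart, as were those of CD63 (log2 -0.08) and CD164 (log2 0.18). CD83 had a log2 change of 0.29 with a wide interval (-0.11 to 0.69), and CD34, the stem cell and endothelial sialomucin, one of 0.33 (-0.14 to 0.81). The other 5, CD2, CD9, CD23, CD37 and CD276, had changes between -0.09 and 0.14. CD180, CD86, CD69, CD38 and CD48, which rose in granulocytes, were not above background on any BES array with or without IFNT.

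**Figure D3:**
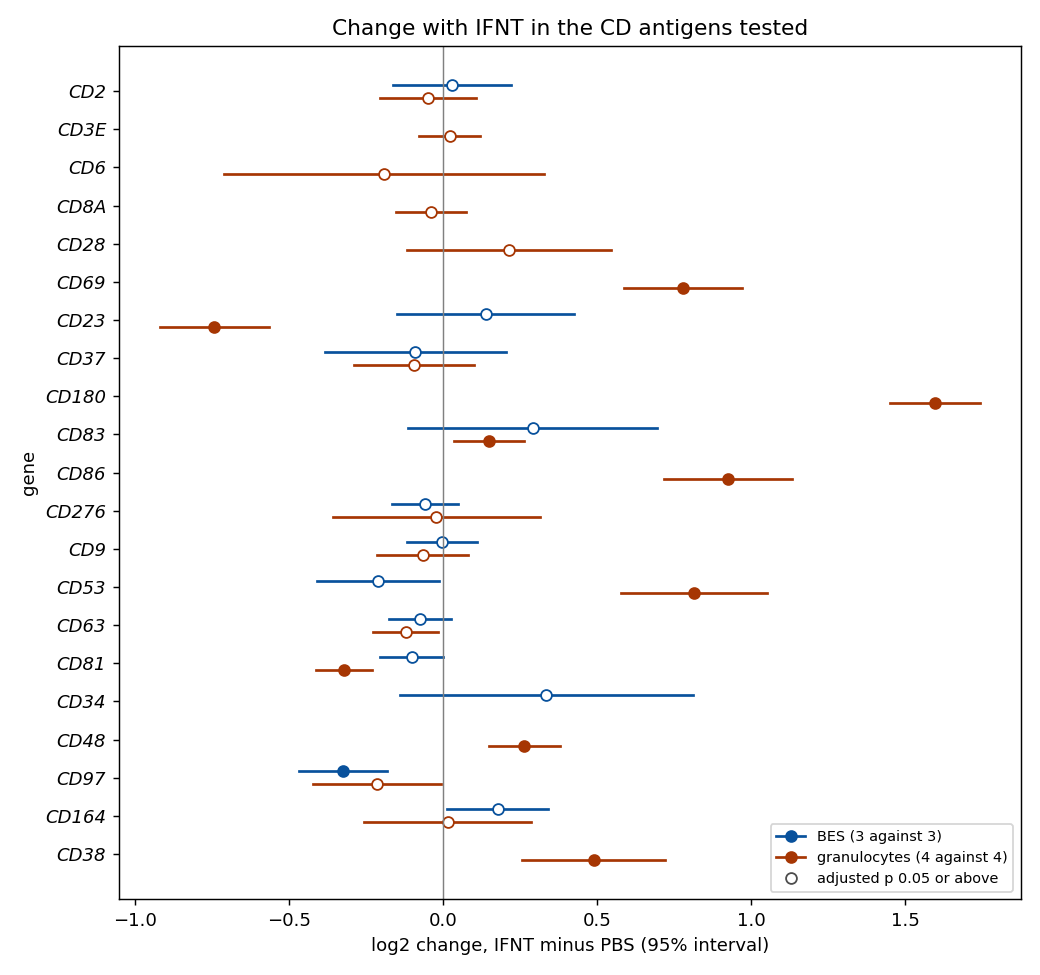
Points are log2 changes with IFNT and bars their 95% intervals from limma, blue for BES (3 against 3 arrays) and brown for granulocytes (4 against 4), with filled points for an adjusted p under 0.05. In granulocytes 9 points are filled, from -0.74 for CD23 to 1.60 for CD180, and in BES CD97 is.

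The difference between the responses was tested directly, in 1 fit over all 4 groups. Of the 11 CD genes above background on every array of both cell types, 3 passed (27.3%), beside 32.1% of the 8947 probes above background on every array. The response was higher in granulocytes for CD53 (13.4% of those probes were higher) and lower for CD23 and CD81 (18.7% were lower). For CD53 the responses were 0.81 in granulocytes and -0.21 in BES, and they differed by 1.03 ± 0.15 (limma adjusted p = 3.04e-04). For CD23 the responses were -0.74 and 0.14, and the difference was -0.88 ± 0.15 (adjusted p = 8.18e-04 with limma).

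In BES, CD23 read -4.52, -4.86 and -4.41 with PBS and -4.52, -4.47 and -4.38 with IFNT, so its groups overlapped there. CD81 was lower with IFNT by 0.32 in granulocytes and by 0.10 in BES, a difference of -0.22 ± 0.05 (adjusted p = 0.00751 with limma). The calls of these 3 genes held under every alternative run for this test, those that left out an array included. Array row was not among these alternatives, and row and treatment cannot be told apart in granulocytes. The other 10 genes tested entered the fit through 1 cell type alone, with no array well above background in the other, so no difference of response is counted or sized for them.

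For CD97 the responses were -0.22 and -0.33, with a difference of 0.11 (95% interval -0.16 to 0.38) that did not pass. CD83 likewise gave no difference past the threshold (-0.14, 95% interval -0.51 to 0.23). For CD63, measured closely on both slides, the interval of the difference was -0.17 to 0.08.

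Granulocytes and BES were also compared under PBS. Of the 11 CD genes above background on every array, 8 were higher in granulocytes and 3 higher in BES. Of the 8947 probes above background on every array, 93.1% differed too (49.5% higher in granulocytes and 43.5% lower), so a difference as such sets no gene apart. The other 10 genes entered through the cell type in which they were detected, which fixed their direction, and 9 of them are described by lower bounds. Since each cell type had its own slide, these differences hold slide and cell type together. The scaling moved the median difference of all probes between -0.23 (quantile normalization) and 0.50 (background corrected by normexp), from 0.03 in the main setting.

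CD276 stood highest in BES against granulocytes. It was at 4.29, 4.35 and 4.35 in BES with PBS and at -3.64, -3.85, -4.03 and -3.60 in granulocytes with PBS, a difference of -8.11 (granulocytes minus BES, log2), or 275.5-fold. CD9, a tetraspanin of platelets and epithelium as well as stroma, was at -1.36, -1.30 and -1.34 in BES and at -3.15, -2.98, -2.95 and -2.97 in granulocytes (3.21-fold). CD63 was at 5.13, 5.11 and 5.06 in BES and at 3.55, 3.58, 3.51 and 3.46 in granulocytes (2.98-fold). The groups of these 3 genes were far apart beside their spread. With quantile normalization the CD63 difference was -2.41 in place of -1.58, and CD276 moved to -7.28 with normexp and -8.84 with quantile normalization. CD34 was above background on BES arrays only, but its BES level did not exceed the limit of detection on granulocyte arrays, so no fold is given. The sign of its fitted difference turned with normexp (0.77 in place of -1.04).

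Of the genes measured in both cell types, CD83 had the largest excess in granulocytes (log2 10.94), followed by CD53 (7.95) and CD97 (5.63). The excess was 2.37 for CD2, 2.10 for CD81, 1.87 for CD164, 1.82 for CD23 and 1.57 for CD37. These 8 kept their direction under each scaling run, but quantile normalization took CD81 to 1.06, CD164 to 1.16 and CD83 to 10.21, and normexp took CD83 to 9.66. Where BES had no array above background, a lower bound was computed against the lowest signal called well above background on each BES array. In the main scaling, CD69 was at least 13320-fold higher in granulocytes, CD48 at least 6764-fold and CD3E at least 413.5-fold. With the array median subtracted these bounds were 11990, 6090 and 372.3. On leaving out an array they were at the lowest 12220, 6206 and 379.4. They were not computed with normexp or quantile normalization.

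CD3E was at 1.21, 1.23, 1.23 and 1.21 in granulocytes with PBS, and CD48 and CD69 as given above. The BES means of these 3 probes with PBS were -9.74, -9.32 and -9.77 in the order CD3E, CD48, CD69. The mean limit of detection was -7.47. These means are not gene levels, as they rest mostly on values that the scanner software substitutes at background. For instance, all 3 probes read -9.9904 in PBS sample 2 of BES. The bounds were 40.7-fold for CD8A, 26.7-fold for CD180, 23.6-fold for CD38, 20.6-fold for CD86, 5.71-fold for CD28 and 4.87-fold for CD6. With the array median subtracted they were 36.66, 24.07, 21.27, 18.55, 5.137 and 4.388 in the same order. The presence of the T cell genes CD3E, CD8A, CD28 and CD6 on the granulocyte arrays stands beside T and NK cell markers there, none of which was below background on all arrays of a group. That marker list was not particular to granulocytes. With PBS its summed signal was 0.4 to 0.424 in granulocytes and 0.276 to 0.332 in BES, where NKG7 and KLRK1 were above background on no array. The B cell list did differ, with sums of 10.1 to 10.7 in granulocytes and 0.0686 to 0.0751 in BES with PBS. Whether the preparation held lymphocytes was not tested.

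Other genes of CD antigens were read from lists chosen by role. Some were named by a CD number but fell outside the symbol pattern, such as names with a second symbol attached or carried in another field. In granulocytes 15 of these were tested and 4 passed, beside 44.6% of all probes. None of the 5 T cell and NK cell genes among them passed (CD3D, CD3G, CD3Z, CD5 and CD96). At an unadjusted p under 0.05, 1 of them, CD3G, did, at a log2 change of -0.25, and the share of all probes at that cut was not counted. CD24, a small glycoprotein of B cells and neutrophils, fell by 1.05 ± 0.05 on the log2 scale (limma adjusted p = 6.42e-07), and the B cell receptor chain CD79A did not pass. CD80, the companion ligand of CD86, fell by 0.48 ± 0.11 (adjusted p = 0.00611 with limma), while CD86 rose, and CD40 did not pass.

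Of the 4 complement regulators and self-recognition signals, CD47, the signal that restrains phagocytosis, rose by 0.25 ± 0.05 (adjusted p = 0.0053 with limma). CD59, an inhibitor of the complement membrane attack complex, fell by 0.22 ± 0.05 (adjusted p = 0.00605 with limma), and CD46 and CD55 did not pass. In BES none of the 9 CD-numbered genes tested outside the pattern passed by limma. An unadjusted p under 0.05 was found for 2 of them, a cut for which the share of all probes was not counted.

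Of the CD antigens known by other gene names, 25 were tested in granulocytes, and 5 rose and 2 fell, 7 in all, beside 44.6% of all probes called there. The largest rises were FCGR3A, the CD16 Fc receptor (1.34 ± 0.09, limma adjusted p = 7.05e-06), and ICAM1, the CD54 ligand of leukocyte integrins (0.93 ± 0.10, 1.32e-04). The falls were C5AR1, the CD88 receptor for complement C5a (-0.47 ± 0.08, 0.00166), and ICAM3, or CD50 (-0.29 ± 0.08, 0.0211). The fall of ICAM3 ended on leaving out PBS sample 1 or 2 or IFNT sample 3 or 4 (adjusted p = 0.0575 to 0.0612). In BES 18 were tested by limma, of which 6 had an unadjusted p under 0.05, 3 of them higher. No share of all probes at that cut was counted, so no result is read from these 6. None rose past the threshold, and THY1, or CD90, fell by 0.36 ± 0.06 (limma adjusted p = 0.0408). THY1 was listed as a stromal marker, but with PBS its mean was -4.39 in BES and -1.88 in granulocytes. That call ended on leaving out any 1 of the 6 arrays (0.0596 to 0.124), and with quantile normalization (0.0609), no filter (0.121), the sample number as a block (0.095) or array row (0.322).

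**Figure D4:**
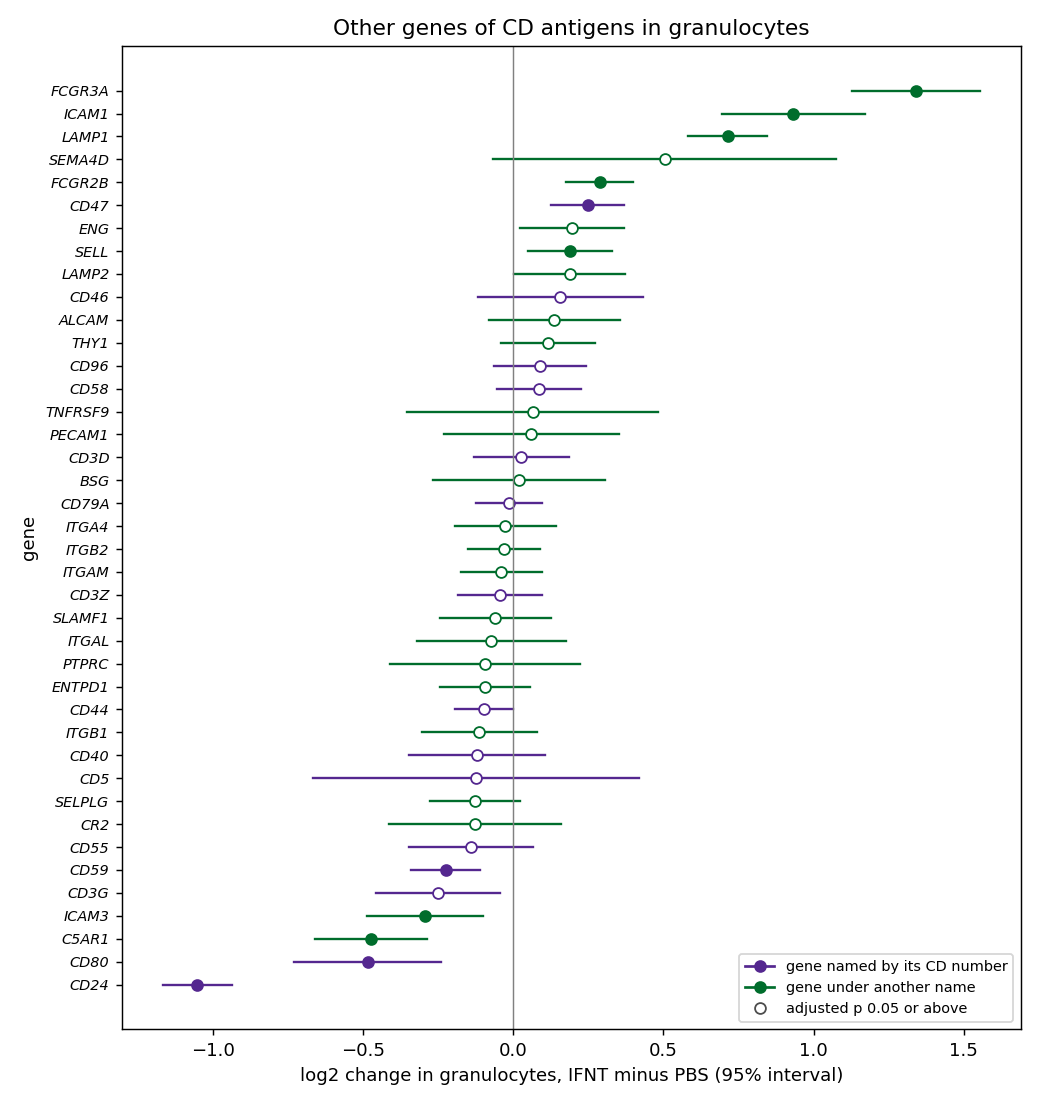
Points are log2 changes with IFNT in granulocytes (4 against 4 arrays) and bars their 95% intervals from limma, for CD antigens outside the 22 genes, purple where the gene is named by its CD number and green where it has another name; filled points have an adjusted p under 0.05. FCGR3A at 1.34 and CD24 at -1.05 mark the ends.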

How the data were processed

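Cy3-labelled RNA of 14 samples was read on one-colour Agilent arrays. The authors deposited scanner files of fluorescence intensity made with Agilent Feature Extraction 9.5, per the submitters' processing notes, in which the processed signal is corrected for background and spatial trend, with substitute values at background. The authors' deposited value table holds log2 values, and each column was the log2 processed signal of its array minus 1 constant; it served as an alternative.

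Processed signals were taken to log2 and each array's 75th percentile was subtracted, which ties every level to the other probes of its array; spots marked as outliers were dropped. Testing required a probe to be well above background on at least 3 of 6 BES arrays or 4 of 8 granulocyte arrays, or in either cell type for contrasts over all groups. Tests were two-sided in limma 3.58.1 (R 4.3.3), with p-values adjusted by Benjamini and Hochberg over all probes tested and a threshold of 0.05; scripts were tested on simulated data. Alternatives were normexp (offset 50), quantile normalization, the array median, other filters, the authors' table, an intensity trend with robust prior, outlier spots kept, the sample number as a block, 1 fit over all groups, array row, the other probe of a symbol, and each array left out.

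The members, lists and tests were chosen with earlier results of these data known. Every member was to be named, with values per array for those past the threshold in either cell type, for the 4 largest differences of response in each direction past the threshold, and for the 3 highest in each cell type under PBS, plus 2 rises and 2 falls of CD antigens under other names; the highest was read, after values were seen, as the largest difference between cell types. CD24, CD80, CD47, CD59 and CD3G are outside that rule and were named after their values were seen. The counts over genes above background on every array were added after values were seen, in place of counts over all 21 tested. The RefSeq table (ARS-UCD2.0) was used for symbols only; the build behind the probes is not given in the sources used here, so no position is stated.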

Additional observations from a re-analysis of the deposited data

Results flagged for a closer look

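The response of CD53 to IFNT was higher in granulocytes than in BES by 1.0261 on the log2 scale, by a test of the difference itself. The responses of CD23 and CD81 were lower in granulocytes than in BES, by the same test, with differences of -0.8807 and -0.2184. Cell type and slide cannot be told apart in these 3 results, nor can array row and treatment within granulocytes.

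CD9 in granulocytes with PBS had 1 sample below the other 3. Sample 1 was at -3.15, and its gap to the nearest sample was 0.8526 of the group's range, above Dixon's critical value for 4 samples. Of the 39 groups of 4 samples examined in this way it was the single one, and chance marks about 1 in 20 such groups.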

How the results depend on the processing

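In granulocytes, the counts of CD genes called were 7 higher and 2 lower; they were 4 higher with all 4 groups in 1 fit, and 4 lower with that fit and with the array median subtracted. Leaving out each array gave 6 to 7 higher and 2 to 3 lower. In BES, the 1 gene lower became 0 with no filter, the replicate block, all 4 groups in 1 fit or array row as a covariate, and 0 to 0 on leaving out each array. Probes called in BES numbered 414, and 189 with no filter, 1011 with an intensity trend and robust prior, 149 with array row, and 183 to 534 on leaving out arrays; the cause was not tested. Apart from CD34 between the cell types under PBS (0.7728 with normexp), values whose sign turned were of genes that did not pass. In BES these were CD23 (-0.0531) and CD9 (0.0012) with array row, and on leaving out arrays CD2 (-0.0523 to 0.1001), CD37 (-0.1877 to 0.0438) and CD9 (-0.0349 to 0.0127). In granulocytes they were CD164 with quantile normalization (-0.0090) and the array median (-0.0062), CD37 with normexp (0.0397), and, leaving out arrays, CD164 (-0.0820 to 0.1047), CD276 (-0.1362 to 0.0738), CD3E (-0.0010 to 0.0418) and CD6 (-0.3544 to 0.0142). In the difference of responses they were CD276 with quantile normalization (-0.0017), CD37 with normexp (0.0806), and, leaving out arrays, CD2 (-0.1511 to 0.0012), CD276 (-0.0765 to 0.1335), CD37 (-0.1399 to 0.0917) and CD83 (-0.2568 to 0.0484). With a replicate block, 6 granulocyte genes were higher and 3 lower. The labels do not say whether numbers pair samples. Same-number samples correlated at 0.0272, 0.1999 and 0.0429 in BES and at 0.2041, 0.2228, 0.2449 and -0.1568 in granulocytes. Samples of unlike number correlated at -0.1489 to 0.0976 in BES and at -0.4926 to 0.3816 in granulocytes. These values do not settle whether numbers pair samples. The same-number values were not all above 0.1, so the block was kept as an alternative. Array row could not be fitted in granulocytes. Signals below background limit CD1B in every group, 9 genes in BES and CD34 in granulocytes.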
